A study of Mus musculus with 6 samples.

Results

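Beta-catenin, the product of *Ctnnb1*, and the proteins that limit its level or sit beside it on the transcription factor Tcf1 are encoded by the 10 genes described here. They are *Ctnnb1*, the destruction complex genes *Apc*, *Axin1*, *Axin2*, *Gsk3a*, *Gsk3b* and *Csnk1a1*, the Groucho co-repressor genes *Tle3* and *Tle4*, and the Tcf1 relative *Tcf7l2*. Members were chosen by name from a list of symbols, and all 10 were found among the 35602 genes of the count table and in the tables of the first pair of libraries, which list 34714 genes.

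Without a Wnt signal, a scaffold of Axin and Apc holds beta-catenin while casein kinase 1 alpha and then GSK-3 phosphorylate it, which marks it for ubiquitination and breakdown. A Wnt ligand bound to Frizzled and Lrp receptors stops this, and beta-catenin then accumulates and replaces Groucho/TLE co-repressors on TCF/LEF factors at target genes. In T cells the main TCF/LEF factors are Tcf1, encoded by *Tcf7*, and Lef1, which are best known for thymocyte development and for keeping mature T cells in naive or memory-like states. All of this control acts on proteins, and RNA levels do not measure it.

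The samples were cultures of CD4+ T cells from mouse spleen, stimulated through CD3 and CD28 for 72 h with MAPK13-IN-1, an inhibitor of the p38 delta kinase encoded by *Mapk13*, or with its solvent DMSO. Bulk RNA was sequenced from 3 libraries per group. The comparison asks how RNA levels differ when the kinase inhibitor is present. Replicates 2 and 3 of each group form 1 table of read counts, and replicate 1 of each group was made with another library kit and comes as normalised values.

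The DMSO replicates 2 and 3 were WT cells given DMSO, and the MAPK13-IN-1 replicates 2 and 3 were WT cells given 17.1 µM of the inhibitor. For these 4 libraries the labels place the addition after day 1 of culture, whereas the series text has the inhibitor present through the 72 h. For the first pair the labels give the treatment but no genotype or dose. Mouse strain, age and the number of animals per library are not stated in the labels. Total counts were 26874805 and 28487403 in DMSO replicates 2 and 3, and 33854760 and 32617702 in MAPK13-IN-1 replicates 2 and 3. Genes with at least 1 count numbered 19159 and 19266 with DMSO, and 21575 and 21171 with MAPK13-IN-1. A count of 0 allows up to 3 counts in a library, which is 0.116 CPM at the lowest total and 0.0845 CPM at the highest, for counting error only. CPM here are read counts scaled by library size after TMM adjustment.

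The labelled cell type was checked against marker genes in each library. CD4 T cell markers were present throughout, with summed levels of 2063 and 2110 CPM in DMSO replicates 2 and 3, 1133 and 1263 CPM in MAPK13-IN-1 replicates 2 and 3, and 1408 and 1409 FPKM in the first pair. The unit inferred here for the first pair is FPKM, which scales fragments by gene length and library size. Its highest gene by mean CPM over the count libraries, not per length, was *Cd5*, although *Cd4* was above it in both MAPK13-IN-1 count libraries. Of the 11 listed genes 10 were found, none at 0. The sum was lower in both MAPK13-IN-1 count libraries than in either DMSO count library. *Cd4* itself was at 275 and 276 CPM with DMSO and at 267 and 283 CPM with MAPK13-IN-1, so its groups overlapped.

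B cell markers were also present in the count libraries, at 1041 and 1013 CPM with DMSO and 1220.2 and 1226 CPM with MAPK13-IN-1. They were low in the first pair, with 43.9 FPKM for DMSO and 38.7 FPKM for MAPK13-IN-1. All 11 B cell genes summed were found, and none was at 0. The highest by mean CPM, not per length, was *Pax5*, at 178 and 168 CPM with DMSO and 263 and 271 CPM with MAPK13-IN-1. With DMSO it was not the highest, as *Cd22* reached 184 CPM in replicate 2 and *Cd79b* 189 CPM in replicate 3. The count libraries therefore carried transcripts of T cell and B cell marker genes together, and each value below is a level in the whole culture. In bulk RNA, fewer cells of a type and less RNA per cell cannot be told apart.

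Levels of the 10 genes were first ordered within each library per kilobase of merged exon, since levels of different genes can be compared only per length. In all 4 count libraries *Ctnnb1* was highest, at 60.5, 59.3, 68.5 and 64.4 CPM per kilobase in DMSO replicates 2 and 3 and MAPK13-IN-1 replicates 2 and 3. *Gsk3a* followed at 40.7 to 45.3 and *Csnk1a1* at 31.0 to 40.3 CPM per kilobase. *Axin1* and *Tle3* came next, at 30.6 and 29.2 CPM per kilobase in DMSO replicate 2, and they changed places in DMSO replicate 3, at 30.9 and 31.0. Their order therefore did not hold beyond the spread between DMSO replicates.

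*Gsk3b* was sixth at 13.6 to 15.2 CPM per kilobase, and *Apc* and *Tle4* were nearly level with each other, at 4.36 and 4.26 CPM per kilobase in DMSO replicate 2. *Axin2*, at 0.895 to 1.48 CPM per kilobase, and *Tcf7l2*, at 0.0928 to 0.183, were the lowest members in each count library. By FPKM in the first pair, *Csnk1a1* led with 73.6 for DMSO and 78.1 for MAPK13-IN-1. The next places there were shared by *Gsk3a* and *Ctnnb1*, and the lowest places were again those of *Axin2* and *Tcf7l2*.

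On the mouse genome (GENCODE, GRCm38), *Ctnnb1* lies at chr9:120929216-120960507 on the plus strand and *Tle3* on the same chromosome and strand at chr9:61372366-61418497. *Axin1* lies at chr17:26138688-26195811 (plus) and *Axin2* at chr11:108920349-108950783 (plus), the chromosome of *Tcf7*. *Gsk3a* lies at chr7:25228258-25237851 (minus) and *Gsk3b* at chr16:38089001-38246084 (plus). The *Gsk3b* gene spans 157084 bases and *Gsk3a* 9594. *Tle4*, at chr19:14448150-14598051 (minus), shares its chromosome with *Tcf7l2*, at chr19:55741820-55933654 (plus). *Apc* lies at chr18:34220924-34322552 and *Csnk1a1* at chr18:61555274-61590061, both on the plus strand.

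All 10 genes passed the filter on low counts and were tested in an edgeR quasi-likelihood fit over 16269 genes, with 2 libraries per group. A gene is called when its Benjamini-Hochberg adjusted p is under 0.05. By that rule 7 of the 10 were called, beside 63.8% of all genes tested. Of the 7, 4 were higher with MAPK13-IN-1, namely *Ctnnb1*, *Apc*, *Axin2* and *Tle4*, beside 31.5% of all genes tested that were called higher. The other 3, *Axin1*, *Tle3* and *Csnk1a1*, were lower, beside 32.3% called lower. *Gsk3a*, *Gsk3b* and *Tcf7l2* were not called. CPM of the groups did not overlap for all 10 members, beside 83.0% of all genes tested. The shares of calls among the members were near those of all genes. The split moved with scaling, to 2 lower and 6 higher with the upper quartile. With library totals it was 1 lower and 6 higher, as *Axin1* and *Tle3* lost their calls and *Gsk3b* and *Tcf7l2* gained one, beside 4302 lower and 6176 higher over all genes.

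The count of 7 moved with single libraries. It fell without DMSO replicate 2 or 3 and rose without MAPK13-IN-1 replicate 2 or 3. The number called over all genes also fell without DMSO replicate 2 or 3, and it rose only without MAPK13-IN-1 replicate 3. The median log2 fold change over the members was 0.13, and over all genes tested it was 0.01. Scaling by library totals alone moved the median of all genes from 0.01 to 0.14 and that of the members to 0.26, so small changes are read relative to that shift. The median of the members was below that of all genes without a filter, at 0.13 beside 0.16, and by DESeq2, at 0.14 beside 0.17. No member's fold change in the count libraries turned sign under any scaling tried. The p-values measure spread between these libraries, which may be technical. No member was called with an absolute log2 fold change over 1, 0 of 10 by edgeR and 0 by DESeq2, although 9 had an unadjusted edgeR p under 0.05, beside 23.4% of all genes tested that passed the adjusted threshold and this fold.

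**Figure D1:**
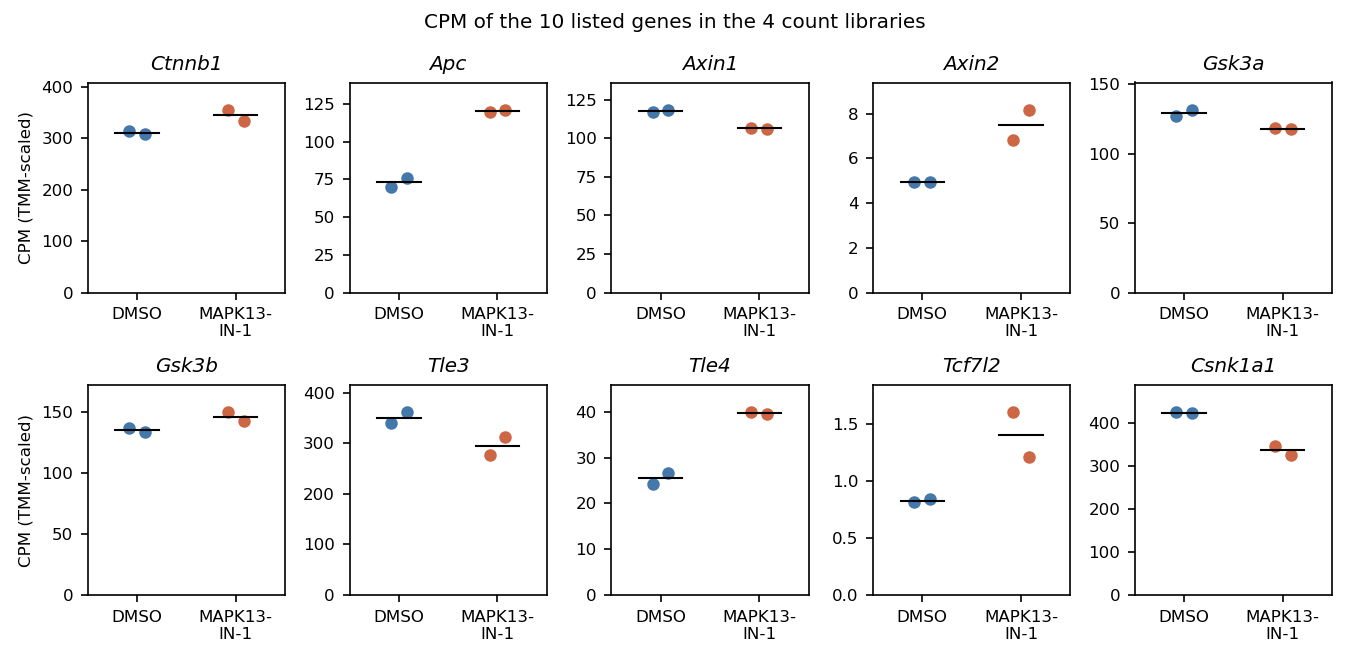
Levels of the 10 genes in each count library, in CPM, with each point 1 library and each bar the mean of 2. *Apc* and *Tle4* stand higher in both MAPK13-IN-1 libraries, and *Csnk1a1* stands lower, at 345 and 326 CPM against 423 and 422 CPM.

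*Ctnnb1*, the gene for beta-catenin, was at 314 and 308 CPM in DMSO replicates 2 and 3, and at 355 and 334 CPM in MAPK13-IN-1 replicates 2 and 3. Both MAPK13-IN-1 values lay above both DMSO values, and the gap between the groups was about as wide as the gap between the MAPK13-IN-1 libraries. The log2 fold change was 0.15 (SE 0.0541, 95% interval 0.03 to 0.27, edgeR adjusted p 0.0321). The call ended without DMSO replicate 2, at an adjusted p of 0.191, and without DMSO replicate 3, at 0.282, and adjusted p ran from 6.86e-05 to 0.282 across alternatives. The first pair had 55.8 FPKM for DMSO and 56.6 FPKM for MAPK13-IN-1. Those values were nearly level, with a log2 ratio of 0.02 that became -0.03 after the median of all expressed genes was set to 0.

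*Apc*, whose large protein helps the scaffold hold beta-catenin, was at 70.3 and 75.8 CPM with DMSO and at 120 and 121 CPM with MAPK13-IN-1. The groups were far apart compared with the distance between replicates. This gave a log2 fold change of 0.72 (SE 0.0648, 95% interval 0.58 to 0.87, edgeR adjusted p 5.15e-06), and *Apc* was called in all 11 alternatives. For *Apc* the first pair had 6.22 FPKM without and 9.81 FPKM with the inhibitor, a log2 ratio of 0.58. Both pairs of libraries thus showed a higher value with the inhibitor.

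*Axin1*, the constitutive scaffold, was at 117 and 118 CPM with DMSO and at 107 and 106 CPM with MAPK13-IN-1. Replicates lay close together and the groups did not overlap. The log2 fold change was -0.14 (SE 0.0583, 95% interval -0.27 to -0.02, edgeR adjusted p 0.0496), just inside the threshold. The call ended in 9 of 11 alternatives, among them the fits without DMSO replicate 2, at an adjusted p of 0.198, and without DMSO replicate 3, at 0.272. Over the alternatives it ranged from 0.0147 to 0.789, and with library totals the fold change was -0.02. For *Axin1* the first pair had 24.3 FPKM without and 21.5 FPKM with the inhibitor, a log2 ratio of -0.17.

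*Axin2*, another scaffold and a commonly used Wnt target gene that feeds back on the pathway, was at 4.93 and 4.96 CPM with DMSO and at 6.82 and 8.17 CPM with MAPK13-IN-1. The counts behind these were 127, 135, 242 and 277. Both MAPK13-IN-1 libraries were higher, and they differed from each other more than the DMSO libraries did. This gave a log2 fold change of 0.60 (SE 0.160, 95% interval 0.24 to 0.95, edgeR adjusted p 0.00761), and *Axin2* was called in all 11 alternatives. By DESeq2 its adjusted p was 0.0499, just inside the threshold. The first pair ran the other way, from 2.05 FPKM for DMSO to 1.45 FPKM for MAPK13-IN-1, a log2 ratio of -0.31. That pair has 1 library a group and no test.

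Within each library the log2 ratio of *Axin1* to *Axin2*, per kilobase, was 5.09 and 5.10 with DMSO and 4.49 and 4.22 with MAPK13-IN-1. The ratio was lower in both MAPK13-IN-1 libraries, by a mean of -0.74. Such a ratio does not depend on how libraries are scaled against each other. The same ratio in the first pair was 3.56 with DMSO and 3.89 with MAPK13-IN-1, so it was higher with the inhibitor there. With 2 libraries against 2, an exact permutation test cannot pass 0.05, and the ratios are given as values.

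*Gsk3a* encodes GSK-3 alpha, a kinase that phosphorylates beta-catenin in the complex. It was at 127 and 131 CPM with DMSO and at 118 and 118 CPM with MAPK13-IN-1. The groups did not overlap, by a narrow margin. The log2 fold change was -0.13 (SE 0.0582, 95% interval -0.26 to -0.0016, edgeR adjusted p 0.0712) and missed the threshold. It was called without MAPK13-IN-1 replicate 2, at an adjusted p of 0.0300, and without MAPK13-IN-1 replicate 3, at 0.0213, in a range of 0.0213 to 0.944 over the alternatives. For *Gsk3a* the first pair had 65.0 FPKM without and 54.7 FPKM with the inhibitor, a log2 ratio of -0.25.

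*Gsk3b*, which encodes the related kinase GSK-3 beta, was at 137 and 133 CPM with DMSO and at 150 and 143 CPM with MAPK13-IN-1. The inhibitor libraries were slightly above the DMSO libraries, without overlap. This gave a log2 fold change of 0.11 (SE 0.0585, 95% interval -0.02 to 0.24, edgeR adjusted p 0.111) and missed the threshold. It passed in 4 alternatives, with upper-quartile scaling (0.0142), library totals (0.00481), at least 10 counts in every library (0.0334), and without MAPK13-IN-1 replicate 3 (0.0134), in a range of 0.00481 to 0.513. *Gsk3b* ran the other way in the first pair, with 12.7 FPKM for DMSO and 10.4 FPKM for MAPK13-IN-1, a log2 ratio of -0.26.

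The log2 ratio of *Gsk3a* to *Gsk3b*, per kilobase, was 1.66 and 1.74 with DMSO and 1.42 and 1.49 with MAPK13-IN-1. It was lower in both MAPK13-IN-1 libraries, by a mean of -0.24, and the groups did not overlap. First-pair ratios were 2.35 with DMSO and 2.39 with MAPK13-IN-1, nearly level. *Gsk3a* overlaps an annotated gene on the opposite strand, *9130221H12Rik*, which had 604 counts over the 4 libraries, and *Ctnnb1* overlaps *Ulk4*, which had 322. Whether the counting used strand is not stated in the processing notes.

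*Csnk1a1*, the gene for casein kinase 1 alpha, which makes the priming phosphorylation of beta-catenin, was at 423 and 422 CPM with DMSO and at 345 and 326 CPM with MAPK13-IN-1. Both inhibitor libraries were lower, by more than the distance between replicates. The fitted log2 fold change was -0.33 (SE 0.0528, 95% interval -0.45 to -0.22, edgeR adjusted p 0.000280), and *Csnk1a1* was called in all 11 alternatives. The first pair had the opposite sign, with 73.6 FPKM for DMSO, 78.1 FPKM for MAPK13-IN-1 and a log2 ratio of 0.08.

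*Tle3* and *Tle4* encode Groucho-type co-repressors that bind TCF/LEF factors. *Tle3* was at 341 and 361 CPM with DMSO and at 276 and 312 CPM with MAPK13-IN-1. The inhibitor libraries were lower and lay further apart from each other than the DMSO libraries. In the fit, the log2 fold change was -0.25 (SE 0.0662, 95% interval -0.40 to -0.11, edgeR adjusted p 0.00668). Without MAPK13-IN-1 replicate 2 it was -0.17, and with library totals the call ended at an adjusted p of 0.0985, in a range of 6.38e-14 to 0.0985. *Tle3* ran the other way in the first pair, with 30.6 FPKM for DMSO and 43.7 FPKM for MAPK13-IN-1, a log2 ratio of 0.50.

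*Tle4* was at 24.3 and 26.6 CPM with DMSO and at 39.9 and 39.5 CPM with MAPK13-IN-1. Both inhibitor libraries were higher and close to each other. The fitted log2 fold change was 0.64 (SE 0.0860, 95% interval 0.45 to 0.83, edgeR adjusted p 9.21e-05), and *Tle4* was called in all 11 alternatives. The first pair had the same direction, with 3.68 FPKM for DMSO, 4.91 FPKM for MAPK13-IN-1 and a log2 ratio of 0.34. The log2 ratio of *Tle3* to *Tle4*, per kilobase, was 2.78 and 2.73 with DMSO and 1.76 and 1.95 with MAPK13-IN-1. It was lower in both inhibitor count libraries, by a mean of -0.90, and in the first pair it was 3.05 with DMSO and 3.15 with MAPK13-IN-1.

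*Tcf7l2*, the gene for Tcf4, a TCF/LEF factor prominent in gut epithelium, had 21 and 23 counts in DMSO replicates 2 and 3 and 57 and 41 counts in MAPK13-IN-1 replicates 2 and 3, or 0.814, 0.846, 1.61 and 1.21 CPM. Levels were low in every library, and both inhibitor libraries were higher. The log2 fold change was 0.76 (SE 0.322, 95% interval 0.05 to 1.48, edgeR adjusted p 0.0595) and missed the threshold. It passed in 5 of 11 alternatives, one of them without MAPK13-IN-1 replicate 3 at an adjusted p of 0.0340, in a range of 0.0306 to 0.325. Both first-pair values were under 1, with 0.0242 FPKM for DMSO and 0.271 FPKM for MAPK13-IN-1.

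**Figure D2:**
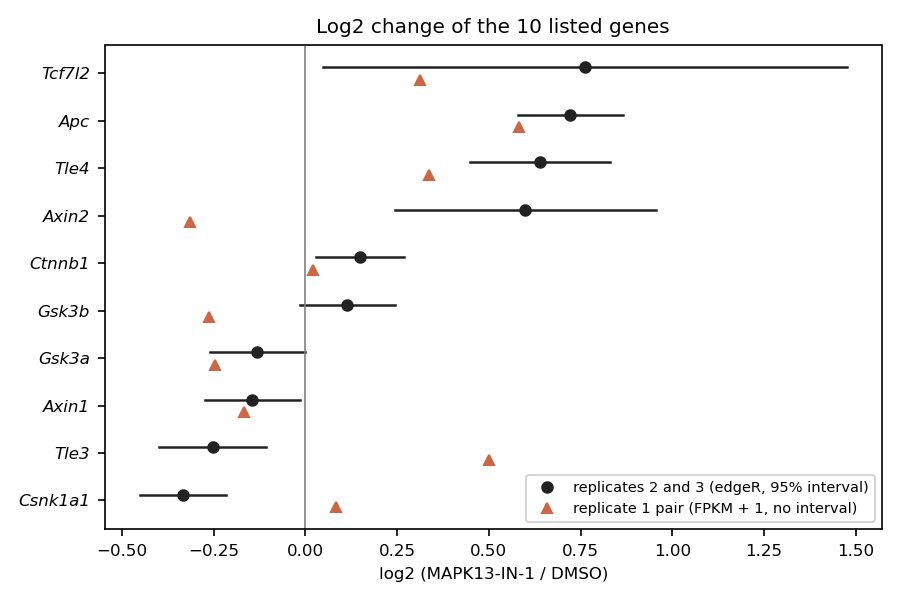
Log2 fold change of each member in the count libraries with its 95% interval, and the log2 ratio of the first pair beside it. *Apc* and *Tle4* lie above 0 in both, while *Axin2*, *Gsk3b*, *Tle3* and *Csnk1a1* lie on opposite sides of 0.

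In the first pair, 9 members were at 1 FPKM or more in both libraries. Of these, 5 were higher with MAPK13-IN-1, beside 54.3% of 10448 genes at that level, and 4 were lower, beside 45.7%. The median log2 ratio of these 9 members was 0.02, beside 0.05 over the 10448 genes. Library kit, labels and unit all differed between the first pair and the count libraries, so these cannot be told apart from other differences between the pairs.

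The genes for Tcf1 and Lef1 were read beside *Tcf7l2*. *Tcf7* was at 158 and 164 CPM with DMSO and at 180 and 215 CPM with MAPK13-IN-1. Both inhibitor libraries were higher, MAPK13-IN-1 replicate 3 most. The fitted log2 fold change was 0.29 (SE 0.0794, edgeR adjusted p 0.00855), and it was 0.41 without MAPK13-IN-1 replicate 2 and 0.15 without MAPK13-IN-1 replicate 3. For *Tcf7* the first pair had 59.4 FPKM without and 73.5 FPKM with the inhibitor, a log2 ratio of 0.30.

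*Lef1* was at 146 and 154 CPM with DMSO and at 79.2 and 80.2 CPM with MAPK13-IN-1. The groups were far apart and replicates lay close together. In the fit, the log2 fold change was -0.91 (SE 0.0611, edgeR adjusted p 7.34e-07). For *Lef1* the first pair had 44.0 FPKM without and 47.7 FPKM with the inhibitor, a log2 ratio of 0.11. *Tcf7l1*, the gene for Tcf3, was at 6.09 and 6.55 CPM with DMSO and 5.55 and 5.55 CPM with MAPK13-IN-1 and was not called (log2 fold change -0.19, edgeR adjusted p 0.300).

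Per kilobase, *Tcf7* made up 76.8% and 76.4% of the summed TCF/LEF level in the DMSO count libraries, and 86.6% and 88.5% in the MAPK13-IN-1 count libraries. *Lef1* made up 21.1% and 21.4% with DMSO, and 11.4% and 9.86% with MAPK13-IN-1. *Tcf7l2* never made up more than 0.231%. The *Tcf7* share was higher in both inhibitor count libraries. In the first pair the *Tcf7* share was 56.4% with DMSO and 59.6% with MAPK13-IN-1, and the *Lef1* share was 41.8% and 38.6%.

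**Figure D3:**
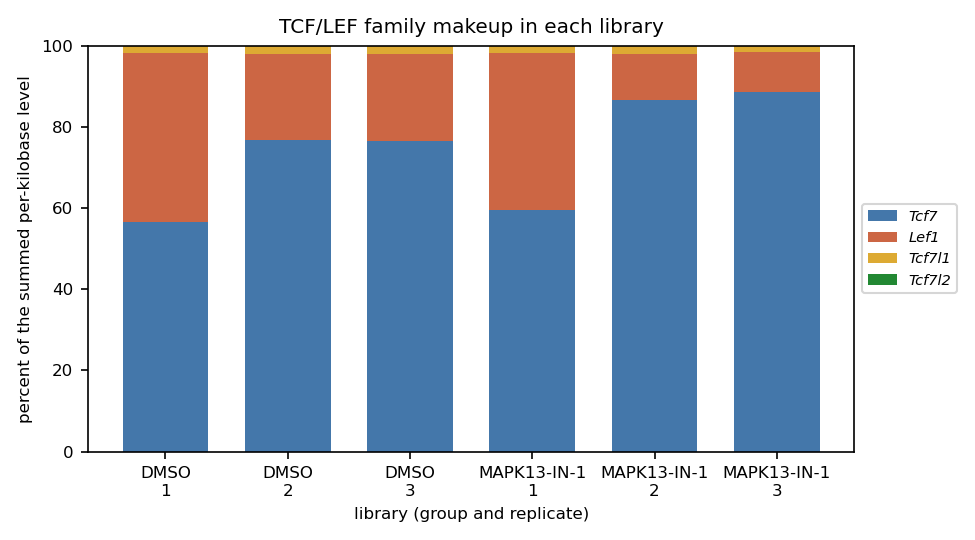
Share of the summed per-kilobase TCF/LEF level held by *Tcf7*, *Lef1*, *Tcf7l1* and *Tcf7l2* in each of the 6 libraries, in percent. *Tcf7* holds 86.6% and 88.5% in the MAPK13-IN-1 count libraries and 76.8% and 76.4% in the DMSO count libraries, and *Tcf7l2* is too small to see.

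*Mapk13*, the gene for the kinase the inhibitor is named for, had 79 and 74 counts with DMSO and 21 and 51 counts with MAPK13-IN-1, or 3.06, 2.72, 0.592 and 1.51 CPM. Both inhibitor libraries were lower, and they differed from each other more than 2-fold. In the fit, the log2 fold change was -1.47 (SE 0.363, edgeR adjusted p 0.00490), and it was -0.94 without MAPK13-IN-1 replicate 2 and -2.29 without MAPK13-IN-1 replicate 3. *Mapk13* ran the other way in the first pair, with 0.191 FPKM for DMSO and 3.28 FPKM for MAPK13-IN-1, a log2 ratio of 1.84.

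The rest of the pathway was read from lists of genes by role. Calls in each list in the main fit stand beside 32.3% of all genes tested called lower and 31.5% called higher. Over all lists without the members, 142 of 144 listed symbols were found and 101 were tested, of which 31 were called lower and 37 higher. That is 67.3% called, near the 63.8% of all genes tested. Their median log2 fold change was 0.09. Some genes passed the filter only through the group in which they were high. With at least 10 counts required in every library, 28 of 91 were called lower and 35 higher, with a median of 0.06. Of all 14166 genes tested under that rule, 4716 were called lower and 4606 higher, or 65.8%, with a median of -0.0017. With library totals 23 were called lower and 48 higher, beside 4302 lower and 6176 higher over all genes. The split of the lists and that of all genes thus both moved with scaling, toward higher. Of 66 pathway genes at 1 FPKM or more in both libraries of the first pair, 38 were higher with MAPK13-IN-1 and 28 lower. Over all 10448 genes at that level, 54.3% were higher and 45.7% lower. None of the 68 called turned sign in any alternative that gave a value. Some of the 68 passed the filter only through the group in which they were high. Among these, *Wnt9b* and *Dkk3* had no DMSO counts and could not turn sign, so this is not read as stability of the list.

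Upstream, 25 genes for Wnt ligands, R-spondins and ligand secretion were listed and 14 passed the filter, several of them only through the MAPK13-IN-1 libraries in which they were high, so the calls and median over the 14 are not read. With at least 10 counts required in every library, 6 were tested, 1 was called lower and 4 higher, beside 65.8% of all genes called under that rule. *Wnt3*, a ligand gene, was at 2.29 and 1.77 CPM with DMSO and at 12.6 and 13.8 CPM with MAPK13-IN-1 (log2 fold change 2.71, edgeR adjusted p 5.49e-07). *Wls*, whose product carries Wnt proteins to the cell surface, was at 8.07 and 7.28 CPM with DMSO and at 15.2 and 14.2 CPM with MAPK13-IN-1 (log2 fold change 0.94). *Wnt10b* was the one called lower, at 17.4 and 18.0 CPM with DMSO and 7.44 and 9.47 CPM with MAPK13-IN-1 (log2 fold change -1.07). For *Wnt10b* the first pair ran the other way, from 1.29 to 2.86 FPKM. The other genes called higher with at least 10 counts in every library were *Wnt5b*, with 34 and 37 counts against 113 and 79, and *Porcn*, needed for Wnt acylation, with 15 and 17 against 38 and 59. By DESeq2 neither was called, at adjusted p of 0.0516 and 0.124. The *Porcn* call also ended without MAPK13-IN-1 replicate 3, at 0.151. Over the alternatives adjusted p ran from 7.79e-05 to 0.0516 for *Wnt5b* and from 0.00112 to 0.151 for *Porcn*.

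*Wnt9b* had no counts in either DMSO library and 48 and 40 counts with MAPK13-IN-1. The mean CPM with MAPK13-IN-1 was 11.2-fold above a floor of 3 counts per DMSO library, leaving out counting error in that mean. *Wnt8b* had 3 and 2 counts with DMSO and 33 and 16 with MAPK13-IN-1, and *Wnt4* had 2 and 3 against 18 and 20. *Wnt6* had 2 and 4 counts against 18 and 20. *Wnt9a* had 5 and 9 against 50 and 55, *Wnt10a* 10 and 3 against 19 and 27, *Wnt11* 9 and 17 against 57 and 47, and *Wnt16* 13 and 7 against 51 and 34. Each of these was under 10 counts in at least 1 DMSO library and above its DMSO counts in both MAPK13-IN-1 libraries. Apart from the comparison with the floor for *Wnt9b*, they are given as counts only.

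Of 18 receptor genes 9 were tested, with 1 called lower and 3 higher and a median log2 fold change of 0.12. The co-receptor gene *Lrp6* was at 71.6 and 69.98 CPM with DMSO and 115 and 107 CPM with MAPK13-IN-1 (log2 fold change 0.65, edgeR adjusted p 1.20e-05). *Lgr4*, which encodes an R-spondin receptor, was higher with a log2 fold change of 1.43, and the Frizzled gene *Fzd5* with 0.57. *Fzd3* was lower by edgeR at -0.81 from counts of 29 to 48. That call ended without DMSO replicate 3, at an adjusted p of 0.225, and without MAPK13-IN-1 replicate 2, at 0.125, with upper-quartile scaling, at 0.0557, with library totals, at 0.0686, and by DESeq2, at 0.263, in a range of 0.0259 to 0.263.

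Of 12 secreted inhibitor genes 2 passed the filter, *Dkk3* only through the MAPK13-IN-1 libraries. *Dkk3* had no counts with DMSO and 43 and 28 with MAPK13-IN-1. The mean CPM with MAPK13-IN-1 was 8.99-fold above a floor of 3 counts per DMSO library, leaving out counting error in that mean. *Sfrp2*, with 31 and 26 counts against 11 and 20, was called lower at a log2 fold change of -1.26. Its call ended without DMSO replicate 2, at an adjusted p of 0.106, without MAPK13-IN-1 replicate 2, at 0.138, and by DESeq2, at 0.173, in a range of 0.00540 to 0.173.

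Of 15 Dishevelled and receptor-proximal genes 14 were tested, with 5 called lower and 2 higher and a median log2 fold change of -0.13. *Frat1*, whose product binds GSK-3, was at 9.31 and 10.99 CPM with DMSO and at 0.394 and 0.531 CPM with MAPK13-IN-1. Its relative *Frat2* was at 7.83 and 5.81 CPM with DMSO and at 0.507 and 0.413 CPM with MAPK13-IN-1. Both were far lower in the inhibitor count libraries, with log2 fold changes of -4.45 and -3.87 and edgeR adjusted p of 1.72e-07 and 1.01e-06. Neither was lower in the first pair, where *Frat1* had 1.75 FPKM for DMSO and 2.33 for MAPK13-IN-1, and *Frat2* had 2.44 and 3.15 FPKM. *Nkd2*, a Dishevelled-binding feedback gene, was called lower at -2.81, and the casein kinase gene *Csnk1g2* at -0.81.

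The remaining destruction complex and degradation genes, 20 tested, had 5 called lower and 4 higher with a median log2 fold change of 0.05. *Ppp2cb*, a catalytic subunit gene of protein phosphatase 2A, was at 90.3 and 91.7 CPM with DMSO and 48.5 and 53.2 CPM with MAPK13-IN-1 (log2 fold change -0.84, edgeR adjusted p 3.47e-06). *Tnks* and *Rnf146*, whose products together mark Axin for breakdown, were called higher at 0.50 and 0.47, and the phosphatase subunit gene *Ppp2r5d* at 0.36. The 9 calls became 14 without MAPK13-IN-1 replicate 3, 12 without MAPK13-IN-1 replicate 2, 7 without DMSO replicate 2 and 6 without DMSO replicate 3. They were 7 by DESeq2 and 14 with library totals. Of those 14, 3 were lower and 11 higher, beside 4302 lower and 6176 higher over all genes. With at least 10 counts in every library the calls were 3 lower and 8 higher, with a median of 0.09. Over all genes tested so, 4716 were called lower and 4606 higher.

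Of 12 nuclear co-activator genes 11 were tested, with 3 called lower and 5 higher and a median log2 fold change of 0.16. With library totals 1 was called lower and 6 higher, beside 4302 lower and 6176 higher over all genes. The acetyltransferase gene *Crebbp* was at 107 and 110 CPM with DMSO and 169 and 149 CPM with MAPK13-IN-1, a log2 fold change of 0.55. Its relative *Ep300* was at 197 and 189 CPM with DMSO and 158 and 156 CPM with MAPK13-IN-1, a log2 fold change of -0.30. These related genes were thus called in opposite directions. *Tbl1x* was called higher at 0.39 and *Bcl9l*, a beta-catenin adaptor gene, at 0.38.

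Of the 16 tested co-repressor and beta-catenin inhibitor genes, 10 were called lower and 2 higher, beside 32.3% and 31.5% of all genes tested, with a median log2 fold change of -0.25. With at least 10 counts in every library, 9 were called lower and 3 higher, beside 4716 lower and 4606 higher over all genes. With library totals 7 were called lower and 4 higher, beside 4302 lower and 6176 higher over all genes. *Hic1* was at 58.9 and 68.2 CPM with DMSO and 25.6 and 31.7 CPM with MAPK13-IN-1 (log2 fold change -1.15, edgeR adjusted p 8.10e-06). *Nlk*, a kinase gene whose product acts on TCF/LEF factors, was called lower at -0.93, and the C-terminal binding protein genes *Ctbp1* and *Ctbp2* at -0.48 and -1.35. *Tle1*, a close relative of *Tle3* and *Tle4*, was at 20.1 and 20.4 CPM with DMSO and 13.6 and 11.6 CPM with MAPK13-IN-1, a log2 fold change of -0.69. The first pair was lower with the inhibitor for *Tle1*, from 3.71 to 1.84 FPKM, and for *Ctbp1*, from 88.0 to 59.9 FPKM. It was higher for *Hic1*, from 4.92 to 11.8 FPKM, for *Nlk*, from 6.35 to 10.4 FPKM, and for *Ctbp2*, from 0.650 to 1.12 FPKM. Of the 12 genes of this list at 1 FPKM or more in both libraries, 7 were higher and 5 lower there. Over all genes at that level, 54.3% were higher and 45.7% lower.

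Beta-catenin also joins cadherins to the cytoskeleton, and of 10 junction genes 3 were tested. *Ctnnd1*, the gene for p120 catenin, was at 4.27 and 4.12 CPM with DMSO and 15.3 and 13.8 CPM with MAPK13-IN-1, a log2 fold change of 1.80. *Jup*, the gene for gamma-catenin, was at 24.0 and 20.6 CPM with DMSO and 13.0 and 16.2 CPM with MAPK13-IN-1, a log2 fold change of -0.61. *Ctnna1*, the gene for alpha-catenin, was not called at -0.12, with 0.01 under library totals. It was called without MAPK13-IN-1 replicate 3 at an adjusted p of 0.00181, in a range of 0.00181 to 0.945.

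Of 20 Wnt feedback and target genes 15 were tested, with a median log2 fold change of 0.29. By edgeR 4 were called lower and 9 higher, beside 32.3% and 31.5% of all genes tested. This list holds the member *Axin2*, among the 9, and shares *Tcf7*, *Lef1* and *Rnf43* with other lists, so its counts are not independent of those above. *Ccnd1*, the cyclin D1 gene, was at 1.55 and 2.13 CPM with DMSO and 27.2 and 24.8 CPM with MAPK13-IN-1, a log2 fold change of 3.81. *Cd44*, an adhesion receptor gene raised in activated T cells, was at 173 and 162 CPM with DMSO and 361 and 339 CPM with MAPK13-IN-1, a log2 fold change of 1.06. *Myc* was at 265 and 295 CPM with DMSO and 132 and 147 CPM with MAPK13-IN-1, a log2 fold change of -1.002. In the count libraries these widely used target genes therefore differed in direction. All 3 were higher with the inhibitor in the first pair, with log2 ratios of 1.18 for *Ccnd1*, 1.29 for *Cd44* and 0.42 for *Myc*. *Prmt6* was called lower at -1.62, and *Bambi* and *Tnfrsf19* were called higher at 1.16 and 1.41 from counts of 17 to 100.

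Levels of cell type markers also differed between the groups that these results compare. Since some marker genes passed the filter only through the group in which they were high, their edgeR calls are counted with at least 10 counts required in every library, beside 65.8% of all genes called under that rule. Of 10 CD4 T cell markers tested so, 8 were called lower with MAPK13-IN-1 and 1 higher. Of 11 B cell markers, 2 were called lower and 7 higher. Among 12 macrophage and monocyte markers, 6 were tested and all 6 were called higher, and the sum of the list was 77.3 and 70.7 CPM with DMSO and 113 and 112 CPM with MAPK13-IN-1, with *Mpeg1* highest by mean CPM. Of 8 erythroid markers 6 were tested and 5 were called higher, and the list had sums of 7.83 and 7.54 CPM with DMSO and 90.0 and 64.6 CPM with MAPK13-IN-1, with *Hbb-bs* highest by mean CPM.

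Dendritic cell markers summed to 43.9 and 44.3 CPM with DMSO and 58.4 and 50.3 CPM with MAPK13-IN-1, with 1 called lower and 2 higher of 3 tested and 7 listed, *Zbtb46* highest by mean CPM and *Cd209a* at 0. *Batf3* went against the sum, from 25.8 and 26.1 CPM with DMSO, above *Zbtb46*, to 2.14 and 3.54 CPM with MAPK13-IN-1. Stromal, endothelial and epithelial markers summed to 54.0 and 51.4 CPM with DMSO and 88.3 and 84.3 CPM with MAPK13-IN-1, with 1 called lower and 1 higher of 5 tested and 10 listed, *Pecam1* highest by mean CPM and *Col3a1* and *Pdgfra* at 0. CD8 T and NK cell markers, 8 listed and 2 tested, both called lower, summed to 12.3 and 11.7 CPM with DMSO and 7.13 and 9.33 CPM with MAPK13-IN-1, with *Cd8b1* highest by mean CPM. Neutrophil markers, 8 listed and 0 with at least 10 counts in every library, stayed under 1 CPM in sum in all 4 count libraries. *Mpo* was highest by mean CPM, at 2 and 2 counts with DMSO and 17 and 16 with MAPK13-IN-1, and *S100a9* was at 0.

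In the first pair the sums with DMSO and MAPK13-IN-1 were 4.70 and 12.6 FPKM for macrophage and monocyte markers, 0.931 and 1.94 for erythroid, 29.6 and 49.1 for dendritic cell, 9.55 and 9.75 for stromal, 4.53 and 11.2 for CD8 T and NK cell and 0.661 and 0.425 for neutrophil markers. In the count libraries the CD4 T cell sum and the CD8 T and NK cell sum were thus lower with the inhibitor. The B cell, macrophage, erythroid, dendritic cell and stromal sums were higher. The part of cell composition in the changes of the members was not tested.

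*Tcf7l2* had the largest absolute fold change of the members over the 4 count libraries, by a margin under its SE, and without MAPK13-IN-1 replicate 2 it was 0.54, below *Apc* at 0.73. Its nearest genes in pattern over these libraries were *LOC118568370*, *Chpt1* and *Gm31090*. Nearness was the Euclidean distance between log2 CPM centred on each gene's own mean, and the distances were 0.0314, 0.0353 and 0.0445. For *Ctnnb1* the nearest were *Mau2*, *Picalm* and *Cltc*, at 0.00729, 0.00831 and 0.0114. With 4 libraries in 2 groups, such nearness mostly means a similar fold change and a similar gap between replicates.

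The genes were also read for shared transcription factor letters near their starts. Promoter windows from RefSeq (GRCm38.p6), 300 bases each, were matched by symbol for 7 of the 10 members, with 10 windows. *Apc*, *Axin1* and *Csnk1a1* had no entry. The TCF/LEF motifs CTTTGAA and CTTTGAT were searched on both strands, along with their shared core CTTTG, which both of them contain. A 7-letter motif was found in 1 of the 7 members, *Gsk3a*. By window this was 1 of 10, beside 8.65% of 32851 windows of the same length. The core was found in 3 members, or 4 of the 10 windows, beside 53.9% of windows.

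The 250 bases before the gene start are printed for *Gsk3a*, the member with a 7-letter match, for *Axin2*, the feedback gene whose window had none, and for *Lef1*, the TCF/LEF gene with the largest absolute fold change. *Lef1* has 4 annotated starts, of which the first is printed, and none of their windows held a 7-letter motif, while each held the core. All come from RefSeq on GRCm38.p6 and read 5′ to 3′ on the gene's own strand. *Gsk3a* is chr7:25237852-25238101 on the minus strand, *Axin2* is chr11:108920099-108920348 on the plus strand and *Lef1* is chr3:131110047-131110296 on the plus strand. Capitals mark CTTTGAA on the reverse strand, read as TTCAAAG, in *Gsk3a*, starting 158 bases before the gene start, and CTTTG in *Lef1*. A match is a description of letters, and for *Axin2* it says only that they are not in this window.
Gsk3a: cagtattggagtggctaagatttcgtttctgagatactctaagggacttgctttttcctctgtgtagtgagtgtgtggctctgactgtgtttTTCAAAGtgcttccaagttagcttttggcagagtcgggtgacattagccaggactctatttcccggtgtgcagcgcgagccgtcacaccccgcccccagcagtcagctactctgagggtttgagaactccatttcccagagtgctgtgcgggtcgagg
Axin2: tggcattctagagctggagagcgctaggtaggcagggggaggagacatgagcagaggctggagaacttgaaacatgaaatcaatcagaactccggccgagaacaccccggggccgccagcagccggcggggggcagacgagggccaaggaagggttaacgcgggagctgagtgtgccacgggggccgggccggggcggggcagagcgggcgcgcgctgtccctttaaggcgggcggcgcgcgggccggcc
Lef1: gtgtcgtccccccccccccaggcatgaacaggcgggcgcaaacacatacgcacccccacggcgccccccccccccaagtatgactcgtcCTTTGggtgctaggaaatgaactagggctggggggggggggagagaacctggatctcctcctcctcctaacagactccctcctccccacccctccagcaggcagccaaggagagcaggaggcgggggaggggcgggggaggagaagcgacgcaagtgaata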

How the data were processed

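Bulk RNA-seq of 6 libraries was read from a deposited table of raw read counts per gene for replicates 2 and 3, all 4 columns of which were used, and from 2 tables of values normalised by the authors for replicate 1, taken here as FPKM because the values are neither whole nor scaled to a fixed sum. The submitters' processing notes list fastp 0.21.0, HISAT2 2.1.0, StringTie 2.1.5 and DESeq2 1.30.1 with mm10 for the count table, and FastQC and HISAT2 without a version for the first pair. The gene annotation is not given in the sources used here.

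Counts were filtered with edgeR's filterByExpr (minimum count 10, total 15), scaled by TMM and tested with the edgeR quasi-likelihood F-test (edgeR 4.0.16, limma 3.58.1, R 4.3.3), 2 libraries against 2, with Benjamini-Hochberg adjustment over 16269 genes. The common biological coefficient of variation was 0.0659. Standard errors are the log2 fold change divided by the square root of F, with 95% intervals. The first pair was left out of the fit because of its other library kit and unit, and is given as log2 ratios with a pseudocount of 1. Per-kilobase levels use merged exon lengths of GENCODE M21 (GRCm38), whose gene models may differ from the authors'. Symbols were matched as written. Tables and figures used Python 3.11.15, numpy 2.4.6 and matplotlib 3.10.9.

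Alternatives were RLE, upper-quartile and library-total scaling, no filter, at least 10 counts in every library, DESeq2 1.42.0, replicate number as a block, leaving out each library, and a fold threshold. For the first pair they were a pseudocount of 0.1, a minimum of 1 FPKM and a median shift, and for the motifs the shorter core. Genes named were the members, *Mapk13*, *Tcf7* and *Lef1*, up to 4 genes per pathway list by smallest p, further list genes called with an absolute log2 fold change over 1, the gene of each marker list with the highest mean CPM, and the 3 nearest genes in pattern for *Ctnnb1* and for the member with the largest fold change. *Cd4*, *Batf3* and other list genes beyond this rule were named after their values were seen. A single marker of the B cell list is not reported here and is left out of its sums and counts. Members and lists were chosen with earlier results of these data known.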

Additional observations from a re-analysis of the deposited data

Results flagged for a closer look

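For 28 of the genes named here, the first pair of libraries ran opposite to replicates 2 and 3, in which both MAPK13-IN-1 libraries lay on 1 side of both DMSO libraries. Genes under 1 FPKM in both libraries of the first pair were left out. The 28 were among 57 named genes that could be read so, or 49.1%, beside 37.6% of 9798 such genes among all tested. Some named genes were chosen after their values were seen, so no conclusion is drawn from the higher share. Among the members, the log2 ratio of the first pair was -0.31 for *Axin2*, -0.26 for *Gsk3b*, 0.50 for *Tle3* and 0.084 for *Csnk1a1*, against log2 fold changes of 0.60, 0.11, -0.25 and -0.33. It was 0.11 for *Lef1* and 1.84 for *Mapk13*, against -0.91 and -1.47.

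Pathway genes that were lower with MAPK13-IN-1 in replicates 2 and 3 and higher in the first pair had first-pair log2 ratios of 0.046 for *Tcf7l1*, 0.76 for *Wnt10b*, 0.28 for *Frat1*, 0.27 for *Frat2*, 0.029 for *Ppp2cb*, 0.057 for *Ep300*, 1.12 for *Hic1*, 0.63 for *Nlk*, 0.36 for *Ctbp2*, 1.33 for *Jup*, 0.22 for *Ctnna1* and 0.42 for *Myc*. Those higher in replicates 2 and 3 and lower in the first pair had -0.0020 for *Tnks*, -0.0029 for *Crebbp* and -0.23 for *Tbl1x*. Of the other named genes, the ratios were -0.66 for *Pax5*, 1.02 for *Cd8b1*, -0.35 for *Pecam1*, 1.19 for *Thy1*, -0.21 for *Cd79b*, 0.42 for *Batf3* and -0.23 for *Cltc*. *Thy1* is named only here, and was the highest CD4 T cell marker in MAPK13-IN-1 replicate 1. The direction of *Ctnna1* in replicates 2 and 3 turned with library totals. No difference between the pairs was tested, since the first pair has 1 library a group and was made with another kit and unit. Single libraries far from their group were not looked for, because each group has under 4 samples.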

How the results depend on the processing

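*Apc*, *Axin2*, *Tle4*, *Csnk1a1*, *Tcf7*, *Lef1* and *Mapk13* kept their direction and their call in all 11 alternatives. The *Axin2* call was just inside the threshold by DESeq2, at an adjusted p of 0.0499. The number of members called was 7 and stayed between 6 and 8 with other scaling, other filters, DESeq2 and the replicate block, and ran from 5 to 10 when 1 library was left out. The same count did not mean the same genes, as with library totals the 7 had lost *Axin1* and *Tle3* and gained *Gsk3b* and *Tcf7l2*, with 6 higher and 1 lower. With an absolute log2 fold change over 1 also required, the calls were 0 of the members by edgeR (9 had an unadjusted p under 0.05, and DESeq2 also gave 0), 3799 of all genes and 27 of the pathway genes. These are lower by construction. Leaving out 1 library gave 8731 to 10943 calls over all genes and 58 to 76 in the pathway lists. The members' median of 0.13 was 0.21 with upper-quartile scaling, 0.26 with library totals and 0.18 with at least 10 counts in every library, and 0.093 to 0.16 when 1 library was left out. The cause was not tested. The shorter core CTTTG was found in 3 members and the 7-letter motifs in 1, as the core is contained in them. *Ctnnb1* in the first pair turned from 0.02 to -0.030 when the median of expressed genes was set to 0. As for pairing, deviations of same-numbered libraries from their group means had a correlation of -0.0064 across genes, which are not independent replicates, over 2 pairs. Without 1 library an arm has a single sample, which is assumed to vary like the other group. Depth limits *Tcf7l2* and *Mapk13*, which had at most 57 and 79 counts in a library, and the Wnt ligand genes with few counts. With 2 libraries a group, the preparation of each library and the treatment effect rest on the same few samples.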
